A study of Mus musculus with 6 samples.

Results

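Among the endothelial cells of mouse brain vessels, 399 cells carried at least 3 of 6 transcripts of the arterial elastic matrix: Fbln5, Cytl1, Mgp, Eln, Bgn and Pi16. They were 399 of 30586 deposited cell barcodes, and 399 of the 22474 barcodes that passed an endothelial gate. The gate took barcodes of at least 1000 UMIs (unique molecular identifiers, each counting 1 captured transcript) and at most 15% mitochondrial UMIs. It asked for at least 3 of Pecam1, Cdh5, Flt1, Ly6c1 and Esam and allowed at most 2 UMIs over Vtn, Rgs5, Acta2, Tagln, C1qa and Ctss. Members also had 0 UMIs of Ackr1 and Plvap, which mark venous and fenestrated endothelium. The cells were thus chosen by the measured values of these genes, and the levels of these genes are given as a description, with no p-value.

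The cells came from brain microvessels captured with beads carrying an antibody to PECAM1, and were sequenced as 10x Genomics 3′ v3.1 single-cell libraries. The 3 control libraries were from C57Bl6 mice with Cldn5 fl/fl and R26 YFP/YFP alleles, and the 3 iECKO libraries from mice that carried Cdh5-creERT2+ as well. Mice of both groups therefore had floxed alleles of the claudin-5 gene, the YFP reporter alleles and tamoxifen, given by gavage (100 µl of 20 mg/ml) for 3 days at about 3 months of age. Cdh5-creERT2 is a tamoxifen-inducible Cre recombinase driven by the VE-cadherin promoter, which acts in endothelial cells, and the series title calls the deletion mosaic. The control genotype lists no Cre, so the groups differ in the recombinase as well as in its target. The labels do not say how many animals made a library, so tests between groups measure the spread between libraries only.

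Elastic arteries recoil because their walls hold elastic fibres: a core of cross-linked elastin on a scaffold of fibrillin microfibrils. Tropoelastin is secreted, guided onto microfibrils by fibulins, EMILINs and latent TGF-beta binding proteins, and cross-linked by lysyl oxidases. Much of this matrix is made by smooth muscle, and endothelial cells of larger arteries contribute to the internal elastic lamina. Small arteries, arterioles and capillaries of the brain hold less of it, and brain capillary endothelium is instead known for tight junctions, transporters and low transcytosis.

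Windows of 3 of the marker genes are printed, each the 250 bases before their RefSeq start site (GRCm38.p6), because their transcripts define the cells and motifs of flow-linked factors can be looked up there. The windows are Fbln5 at chr12:101819120-101819369 (minus strand), Cytl1 at chr5:37735269-37735518 (plus strand) and Bgn at chrX:73483351-73483600 (plus strand), each written 5′ to 3′ on the strand of the gene. Capitals mark CACCC, the core letters bound by Krüppel-like factors, on either strand (GGGTG is its reverse).
Fbln5: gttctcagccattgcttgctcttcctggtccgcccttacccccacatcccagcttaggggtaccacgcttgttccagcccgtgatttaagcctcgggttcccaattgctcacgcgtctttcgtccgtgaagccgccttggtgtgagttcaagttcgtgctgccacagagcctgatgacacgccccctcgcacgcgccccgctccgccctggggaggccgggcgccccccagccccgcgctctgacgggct
Cytl1: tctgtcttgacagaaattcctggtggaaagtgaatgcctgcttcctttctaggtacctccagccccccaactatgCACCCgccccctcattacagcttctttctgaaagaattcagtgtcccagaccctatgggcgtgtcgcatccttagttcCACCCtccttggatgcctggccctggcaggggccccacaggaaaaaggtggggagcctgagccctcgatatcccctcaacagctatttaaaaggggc
Bgn: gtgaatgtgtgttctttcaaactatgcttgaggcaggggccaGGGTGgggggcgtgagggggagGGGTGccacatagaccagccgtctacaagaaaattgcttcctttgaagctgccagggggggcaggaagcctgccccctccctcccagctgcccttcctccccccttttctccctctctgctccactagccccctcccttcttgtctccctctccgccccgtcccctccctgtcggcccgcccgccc
CACCC occurred 0 times in the Fbln5 window, 2 times in the Cytl1 window and 2 times in the Bgn window. Among 32851 RefSeq windows of the same length 52% held it on either strand. ACAAT, a core of SOX sites found in 27.7% of windows, TGANTCA, an AP-1 site found in 6.75%, and TATAAA, found in 12.4%, were in 0 of the 3 windows. Of the 6 markers 4 had an entry in the RefSeq table, and Mgp, Eln and Pi16 are not shown.

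The 6 libraries held 15727366 to 49350802 UMIs in 2714 to 7420 barcodes. Members numbered 46, 132 and 61 in control libraries 1 to 3 and 77, 33 and 50 in iECKO libraries 1 to 3, and their summed counts were 328891 to 1144544 UMIs a library. Their median depth was 8209 UMIs and 2859 genes, against 5736 UMIs and 2382 genes in other arterial cells. A rule that needs detected genes favours deeper cells, and classes are therefore also compared after thinning. Of all deposited barcodes 96 sequences occurred in 2 libraries, and 0 of these were members. The YFP reporter feature had 0 UMIs in all libraries and could not mark recombined cells.

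Mgp, which encodes matrix Gla protein, an inhibitor of vascular calcification, was detected in 99.2% of members and Eln, the elastin gene, in 93.2%. Fbln5, encoding the elastin-binding fibulin-5, was detected in 83.2%, Bgn, encoding the proteoglycan biglycan, in 56.1%, Cytl1, encoding a small secreted protein, in 53.1%, and Pi16, a peptidase inhibitor gene, in 31.1%. In all gate cells that were not members, library shares were 0.26 to 0.958% for Fbln5 and 0.0651 to 0.507% for Cytl1, and 6.82 to 22.0% for Mgp. Microglia, which should lack Mgp, had it in 0.671 to 11.1% of cells at library medians of 2548 to 5494 UMIs, against 6255 to 13920 UMIs in members. Smooth muscle cells of the same libraries carried Mgp in 70.0 to 93.0%, Bgn in 53.3 to 80.9% and Eln in 31.1 to 60.9% of cells, but Fbln5 in at most 4% and Cytl1 and Pi16 in at most 0.488% each.

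**Figure D1:**
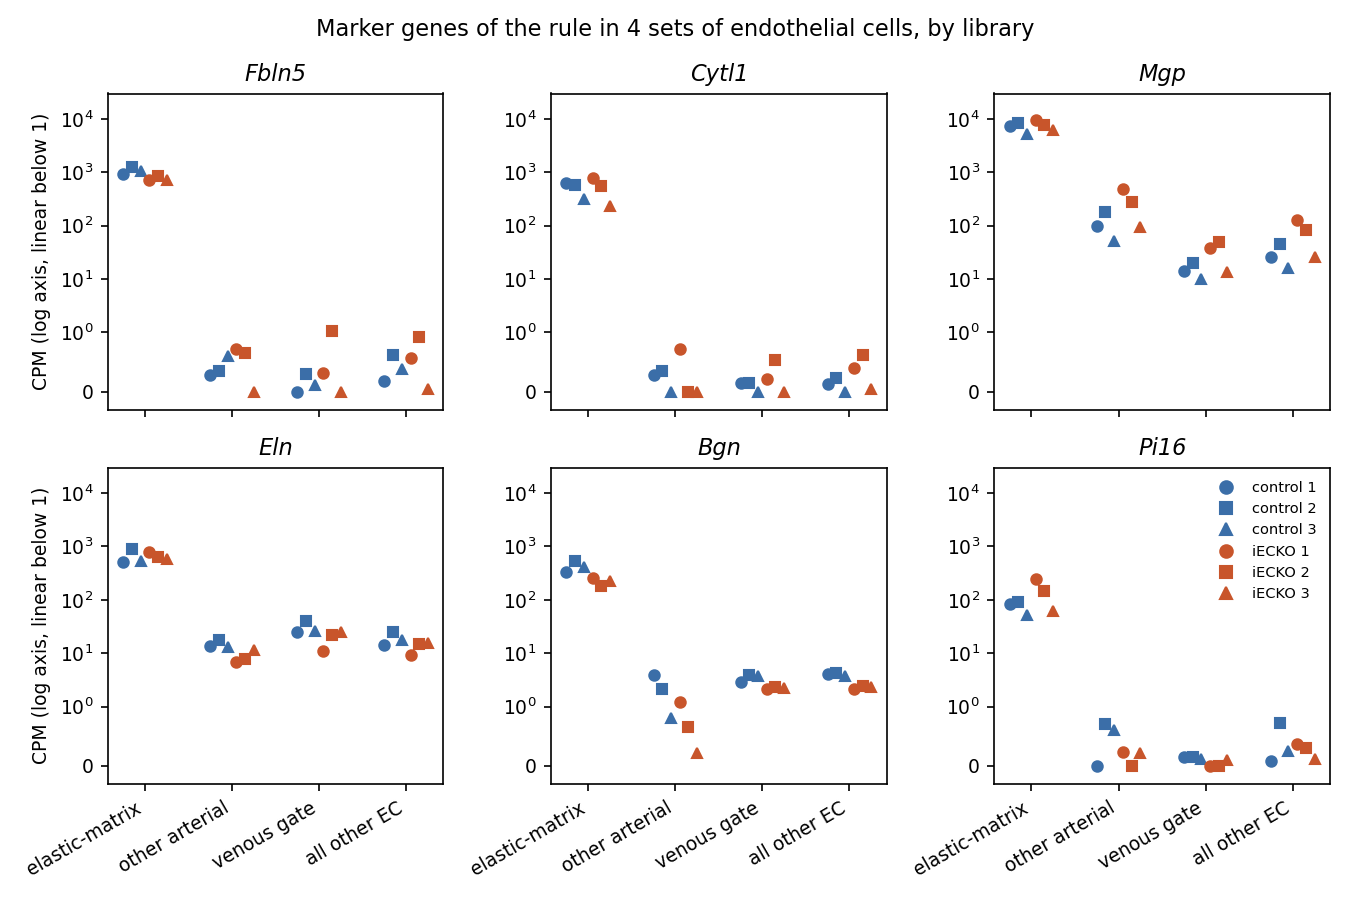
Levels of the 6 marker genes (CPM on a log axis) in members, other arterial and all other endothelial cells; each point is 1 library. Mgp lies between 5223 and 9732 CPM in members and between 51.7 and 479.9 CPM in other arterial cells, a distance that the choice of cells fixes.

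On GRCm38 (GENCODE M21) Mgp lies at chr6:136872435-136875823, Eln at chr5:134702593-134747323, Fbln5 at chr12:101746565-101819055, Cytl1 at chr5:37735519-37739820, Bgn at chrX:73483602-73495933 and Pi16 at chr17:29317680-29330593. Levels are given as CPM, summed UMI counts per cell class scaled to a common library size. Summed over the members of each library, Mgp stood at 7440.0, 8278 and 5223 CPM in control libraries 1 to 3 and 9732, 7816 and 6265 CPM in iECKO libraries 1 to 3. Eln stood at 508, 914 and 544 CPM in the controls and 772, 636 and 591 CPM in iECKO, and Fbln5 at 924, 1260.0 and 1046 CPM in the controls and 715, 842 and 732 CPM in iECKO. Control library 2 was the highest for Eln and Fbln5, and iECKO library 1 for Mgp. For Fbln5 all controls lay above all iECKO libraries, while for Mgp and Eln the groups overlapped. Bgn stood at 335, 542 and 407 CPM in the controls and 261, 184 and 226 CPM in iECKO, again with all controls above all iECKO libraries. Over all 7682 genes tested between the groups without pairing, 381 (4.96%) were lower in iECKO without overlap and 352 (4.58%) higher. Cytl1 stood at 622, 571 and 314 CPM in the controls and 774, 554 and 236 CPM in iECKO, and Pi16 at 82.2, 92.3 and 51.2 CPM in the controls and 250.5, 146 and 62.1 CPM in iECKO. For these last 2 genes library 3 was the lowest of its group in both groups, and the groups overlapped.

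Members carried different combinations of the markers. The most frequent combination was Fbln5, Cytl1, Mgp, Eln and Bgn without Pi16, in 107 members (26.8%). Next came Fbln5, Mgp and Eln alone in 61 (15.3%), Mgp, Eln and Bgn in 38 (9.52%), and all 6 markers in 37 (9.27%). Cytl1 was detected in 60.8% of members with Fbln5 and in 14.9% of those without it, and Bgn in 72.2% of members with Cytl1 and in 38.0% of those without. Bgn was detected in 36.3% of members with Pi16 and in 65.1% of those without. The rule shapes these shares, because a member that lacks one marker must hold at least 3 of the others. The subsets also differed in depth. The median was 6151 UMIs for Cytl1 without Pi16 (151 cells), 8858 for Pi16 without Cytl1 (63 cells) and 11320 for both (61 cells). The part of depth in these combinations was not tested. Members are cells of 6 libraries, not replicates, and these shares carry no test.

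Genes outside the rule differed along these splits, given as means over 6 libraries with the SD and no test. Members with Cytl1 had more Ptgis, the prostacyclin synthase gene, than members without it (232 ± 44.5 against 50.1 ± 16.7 CPM). They also had more Lox, the lysyl oxidase gene (88.3 against 14.3 CPM), and less Emcn, an endothelial sialomucin (78.1 ± 44.2 against 233 ± 40.1 CPM). For Ptgis and Emcn the libraries of these subsets did not overlap (169 to 299 against 37.6 to 83.0 CPM, and 19.3 to 120.0 against 174 to 280.0 CPM). Members with Pi16 had more S100a6, a calcium-binding protein gene, than those without (675 ± 269 against 130 ± 89.5 CPM) and less Gkn3, a marker of brain arterial endothelium (751 ± 293 against 1460 ± 793 CPM, with overlapping libraries).

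The number of markers detected ordered other genes along a gradient. Of the gate cells with 0 UMIs of Ackr1 and Plvap, 16636 had 0 markers, 3166 had 1, 656 had 2, 144 had 3, 84 had 4, 134 had 5 and 37 had 6. Igfbp4, which binds insulin-like growth factors, averaged 2.46 CPM at 0 markers, 40.5 at 2, 154 at 3 and 643 at 5 or 6. Clu, the gene of the secreted chaperone clusterin, averaged 12.4, 113, 404 and 2100.0 CPM at the same steps. Nos1, the neuronal nitric oxide synthase, averaged 1.13, 23.6, 102 and 304 CPM. All 3 genes were thus present just below the threshold of 3 markers, at lower levels than just above it. Genes of brain capillary endothelium ran the other way: Emcn, the sialomucin gene, averaged 504, 321, 247 and 76.7 CPM. Mfsd2a, the lipid transporter that restrains transcytosis, averaged 304, 152, 113 and 33.3 CPM. Cldn5 kept a similar level throughout, at 3870, 3490, 3580 and 4290 CPM. These are means over libraries and carry no test, because the marker number is the rule.

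**Figure D2:**
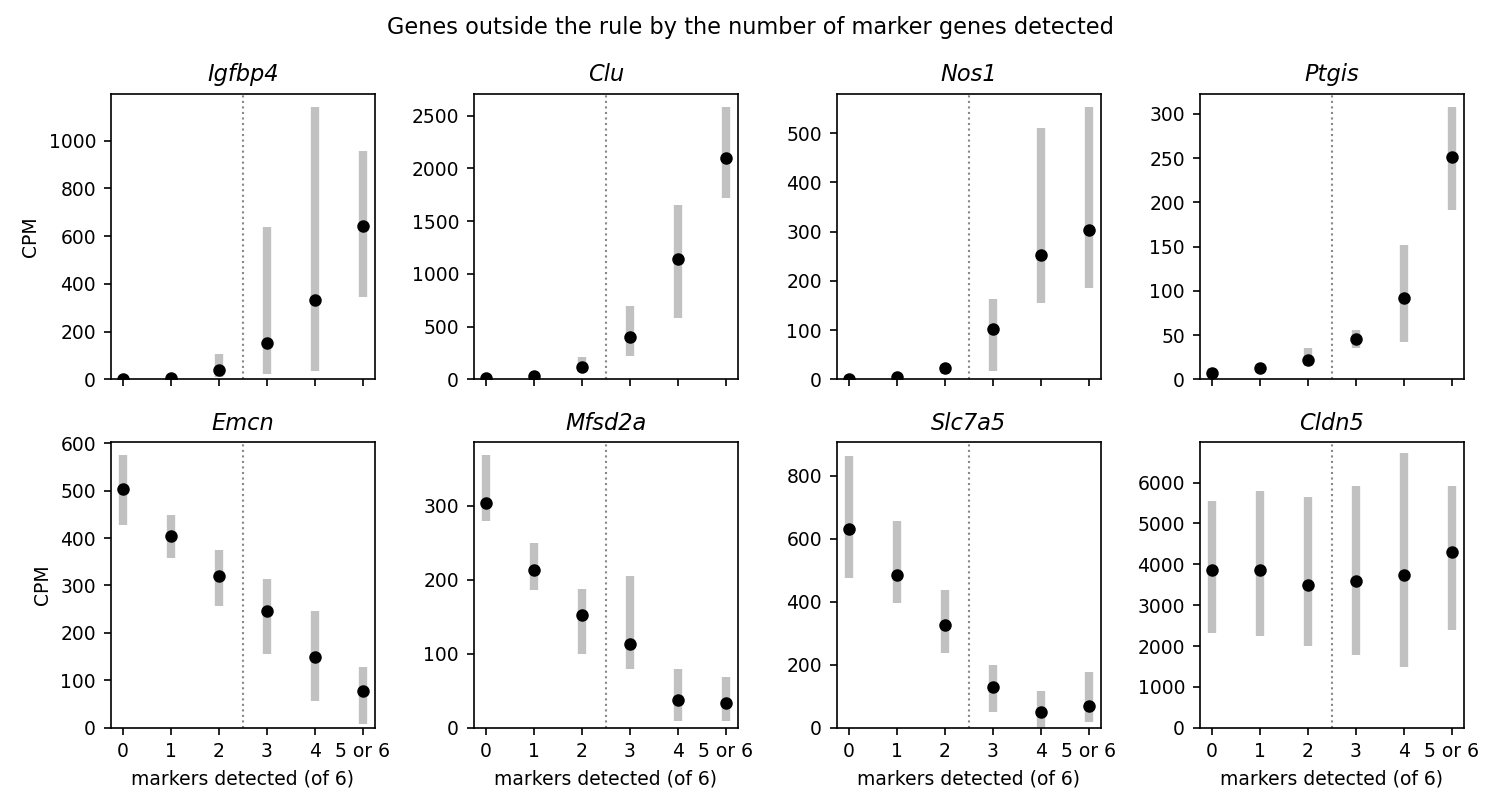
Levels of 8 genes (CPM) against the number of the 6 markers detected per cell; points are means over 6 libraries, grey bars run from the lowest to the highest library, and the dotted line is the threshold of 3 markers. Igfbp4, Clu, Nos1 and Ptgis rise from left to right, Emcn, Mfsd2a and Slc7a5 fall, and Cldn5 stays near the same height.

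By markers not used in the rule, the members were arterial endothelium: 369 of 399 (92.5%) had at least 2 of Bmx, Sema3g, Gkn3, Efnb2 and Gja4, against 14.4% of the endothelial cells with at most 1 marker. These shares were taken without thinning, and the median depth was 8209 UMIs in members and 4308 UMIs in the cells with at most 1 marker. Gja5, the gene of the arterial gap junction protein connexin 40, stood at 53.3, 59.9 and 43.1 CPM in the controls and 38.5, 38 and 46.2 CPM in iECKO, against 0.24 to 3.04 CPM in other arterial cells. The smooth muscle list summed to 207 to 312 CPM in members and 56.1 to 88.2 CPM in other arterial cells, and Mylk accounted for 120.5 to 225 CPM of it in members. Of the 10 genes of that list Cnn1 and Actg2 had 0 UMIs in the members of every library. The pericyte list summed to 8.09 to 17.7 CPM. The fibroblast list summed to 31.7 to 106 CPM in members and 47.7 to 75.6 CPM in other arterial cells. Lum, Col1a1 and Slc6a13 of that list were at 0 in members, but Col3a1, a fibrillar collagen gene, was not. Col3a1 averaged 0.25 CPM at 0 markers, 0 at 3, 5.98 at 4 and 112 CPM at 5 or 6, with no test. A fibroblast-gene UMI was held by 18.3% of members against 1.73% of other arterial cells. Lymphatic genes summed to at most 13.4 CPM. Of the members 8 were rich in haemoglobin or Ttr transcripts, and 1 cell of iECKO library 3 held 20228 Ttr UMIs of 73547. Erythrocyte genes ran from 22.9 to 18900.0 CPM and choroid plexus genes from 48.5 to 26700.0 CPM between libraries. Vessel diameter was not measured, and the cells are called elastic-matrix arterial cells or members here.

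Members were compared with the other arterial endothelial cells of the same libraries, to show what sets the elastic-matrix cells apart within the arterial tree. These were 2778 gate cells with at most 1 marker, at least 2 of the 5 arterial genes above and 0 UMIs of Ackr1 and Plvap. Counts were summed per library and class and tested with edgeR's quasi-likelihood test with the library as a block, without the genes used to choose either class. Of 10036 genes 1610 were higher in members (16%) and 1322 lower (13.2%), and the median log2 difference of all genes tested was -0.000119. A gene that reached the filter on low counts through the members only could be tested only because it was high there. Of the 10036 genes 9353 reached it in the other arterial cells alone, and of these 1264 were higher (13.5%) and 1320 lower (14.1%), with a median of -0.0227. Counts and medians of gene lists below are over these genes alone, so that Lox, Fbn1, Emilin1, Mfap2, Fbln1, Ltbp3, Ltbp1, Col8a1, Timp4, Mmp2, Gja5, Hey2, Cyp1b1, F2r, Ptgis, Bmp4, Bmp6, Gata6, Fabp4, Sema3f and Igfbp4 are not counted. Where their levels or log2 differences are printed, they are a description without a standard error or test. With every cell thinned to 2000 UMIs, 733 were higher and 636 lower of 6626 tested. Log2 differences below are members minus other arterial cells, with the standard error.

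Igfbp4 and Clu, both genes of secreted proteins, had the 2 largest of the 12 differences that the rule for naming genes selects (mean log2 CPM of at least 6). Igfbp4 had 213, 250.4 and 205 CPM in control libraries 1 to 3 and 885, 389 and 279 CPM in iECKO libraries 1 to 3 in members and 3.02 to 13.9 CPM over the 6 libraries of other arterial cells. Its log2 difference of 6.02 carries no test, because Igfbp4 reached the count filter through the members only. Clu had 1046, 1296 and 922 CPM in the controls and 1691, 1396 and 1016 CPM in iECKO in members and 9.92 to 36 CPM in other arterial cells (5.56 ± 0.33, edgeR, adjusted p = 9.04e-05). For both genes every library of members lay far above every library of the other cells. Nos1, which makes nitric oxide in neurons, had 124, 229.8 and 154 CPM in the controls and 255, 364 and 161 CPM in iECKO against 4.15 to 13.9 CPM (4.73 ± 0.12, edgeR, adjusted p = 2.88e-22). Timp2, an inhibitor of matrix metalloproteinases, differed by 3.94 ± 0.12. Others among the 12 largest were Emp3 (4.01) and Emp1 (3.22), of one membrane protein family, Bpgm (3.03), which makes bisphosphoglycerate, Lmcd1 (2.75), Mylk, the myosin light chain kinase (2.68), Nuak1 (2.68) and Egfl8 (2.6).

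Several genes of elastic fibre assembly had higher levels in members. Of 20 genes fixed for elastic fibre assembly 11 were tested, but only 3 reached the count filter in the other arterial cells alone: Fbln2 and Ltbp4, which were higher, and Efemp2 (0.10 ± 0.18, edgeR, adjusted p = 0.717). Lox, the elastin cross-linking lysyl oxidase, had 57.7, 80.5 and 60.6 CPM in the controls and 32.5, 25.3 and 25.6 CPM in iECKO in members and at most 0.240 CPM in other arterial cells, too few counts for a fold. Fbn1, encoding fibrillin-1 of the microfibril, had 64.4, 80.5 and 48.5 CPM in the controls and 48.2, 120.3 and 47.5 CPM in iECKO against 2.4 to 5.79 CPM (4.04, not tested). Ltbp4, which tethers latent TGF-beta and assists elastin assembly, had 1952, 2268 and 1876 CPM in the controls and 1510.0, 1890.0 and 1314 CPM in iECKO against 486 to 937 CPM (1.37 ± 0.09). The members were above the other arterial cells in every library for all 3 genes. Lox and Fbn1 reached the count filter through the members only, and for Ltbp4 the adjusted p was 7.31e-13 (edgeR). Emilin1, an elastin microfibril interfacer, had 7.3 to 50.6 CPM against 0.201 to 1.06 CPM. Like Emilin1, the genes Mfap2, Fbln1, Ltbp3 and Ltbp1 reached the filter through the members only, and their calls are not used. The list is close in kind to the markers that chose the cells. The smooth muscle sum was also higher in members, as given above, while the ranges of the fibroblast sum overlapped, and their part in these values was not tested. When members with a fibroblast-gene UMI were left out, Ltbp4 kept its call.

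Other matrix genes divided. For non-elastic matrix and proteoglycans 4 of 16 genes were higher and 7 lower, with a median log2 difference of -0.254. Col18a1, the collagen that yields endostatin, was higher by 2.47 ± 0.13 (139 to 228 against 23.9 to 40.3 CPM). Col8a1, which is not counted, was higher by 3.84. Col4a2, of the basement membrane collagen, was lower (-0.91 ± 0.09), as was the matricellular Sparcl1 (-0.99 ± 0.09). For matrix proteases and their inhibitors 4 of 11 genes were higher and 4 lower, with a median log2 difference of -0.208. The inhibitors Timp2, with 189.8 to 269 against 9.92 to 17.7 CPM, and Timp3 (0.77 ± 0.09) were among the higher genes. Timp4, which is not counted, had 6.87 to 65 against 0.353 to 0.958 CPM. Mmp2, encoding a gelatinase, was detected at 0 to 17.5 CPM in members and at most 0.276 CPM in other arterial cells.

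Many arterial and flow-linked genes were higher in members than in other arterial cells. For arterial identity and Notch genes 12 of 25 genes were higher and 4 lower, with a median log2 difference of 0.25. Jag1, a Notch ligand, had 193, 324 and 268 CPM in the controls and 350.4, 317 and 196 CPM in iECKO against 49.4 to 129 CPM (1.8 ± 0.10, edgeR, adjusted p = 6.02e-14). Hey2, a Notch target that marks arterial fate, was higher by 4.2 and Gja5 by 4.92, and neither is counted or tested. The chemokine gene Cxcl12, an arterial gene, was lower (-2.14 ± 0.12). For flow-responsive genes 8 of 13 genes were higher and 0 lower, with a median log2 difference of 0.295. Klf2, a transcription factor induced by shear stress, had 3628, 3544 and 3205 CPM in the controls and 2747, 3166 and 3670.0 CPM in iECKO against 1316 to 2742 CPM (0.76 ± 0.10), and Nos3, the endothelial nitric oxide synthase, was higher by 0.72 ± 0.08. Cyp1b1, a shear-induced cytochrome, had 14.8 to 77.6 CPM against 0 to 3.31 CPM.

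Vasoactive and clotting genes did not move as one. For that list 3 of 14 genes were higher and 5 lower, with a median log2 difference of -0.236. Ptgis, which is not counted, had 144, 134 and 113 CPM in the controls and 157, 155 and 103 CPM in iECKO against 0.661 to 4.97 CPM (5.31, not tested). Vwf, encoding von Willebrand factor, had 515, 1147 and 489 CPM in the controls and 809, 1238 and 415 CPM in iECKO against 116 to 273 CPM (2.08 ± 0.09). The tetraspanin gene Cd9 was higher by 1.52 ± 0.08. F2r, the thrombin receptor gene, which is not counted, was higher by 1.96. For TGF-beta and BMP signalling 7 of 16 genes were higher and 6 lower, with a median log2 difference of 0.0442. Bmp4, a BMP ligand, had 51.1, 310.3 and 142 CPM in the controls and 72.3, 44.3 and 40.1 CPM in iECKO against 0 to 1.77 CPM, with control library 2 the highest. The BMP targets Id2 (1.51 ± 0.10) and Smad6 (1.6 ± 0.12), an inhibitor of the pathway, were higher too, and the ligand gene Bmp6 had 6.33 to 27.5 against 0.276 to 1.41 CPM.

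Genes of the brain barrier were lower in members, apart from the junction proteins. Of 25 barrier transporters, all of which reached the filter in the other arterial cells, 0 were higher and 22 lower, with a median log2 difference of -1.35. Mfsd2a had a log2 difference of -2.28 ± 0.11, Slc1a1, a glutamate transporter, of -2.99 ± 0.14 with 28.9, 11.8 and 20.2 CPM in the controls and 21.7, 38 and 28 CPM in iECKO against 142 to 275 CPM, Slc39a10, a zinc transporter, of -1.36 ± 0.08, and Abcg2, an efflux pump, of -0.98 ± 0.08. Slc7a5, the large neutral amino acid transporter, was also among the 12 largest lower differences (-2.28 ± 0.17). For Wnt signalling and barrier transcription 3 of 21 genes were higher and 14 lower, with a median log2 difference of -0.709. The Wnt effector Lef1 had 322, 299.5 and 310.0 CPM in the controls and 143, 231 and 242 CPM in iECKO against 382 to 570.0 CPM (-0.89 ± 0.09), and the targets Axin2 (-1.0 ± 0.12) and Apcdd1 (-1.33 ± 0.12) were lower as well. For junction proteins 1 of 14 genes was higher and 2 lower, with a median log2 difference of -0.0614, the lower genes being Ctnnb1 (-0.37 ± 0.08) and Ocln (-0.28 ± 0.08) and the higher one F11r (0.25 ± 0.08). The call of Ocln was lost after thinning (edgeR, adjusted p = 0.154). That of F11r was lost after thinning (edgeR, adjusted p = 0.581), with DESeq2, with no filter on low counts, with at least 4 markers, with stricter cell limits, with 3 of 5 arterial genes, and without control library 1 or iECKO library 2, at adjusted p of 0.0589 to 0.201 in these other repeats. The other genes among the 12 largest lower differences were Ivns1abp (-2.74), Hmcn1 (-2.58), Tiam1 (-2.43), Ddc (-2.35), Lrp8 (-2.23), Ctla2a (-2.03) and the metallothioneins Mt2 (-2.15) and Mt1 (-2.03).

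**Figure D3:**
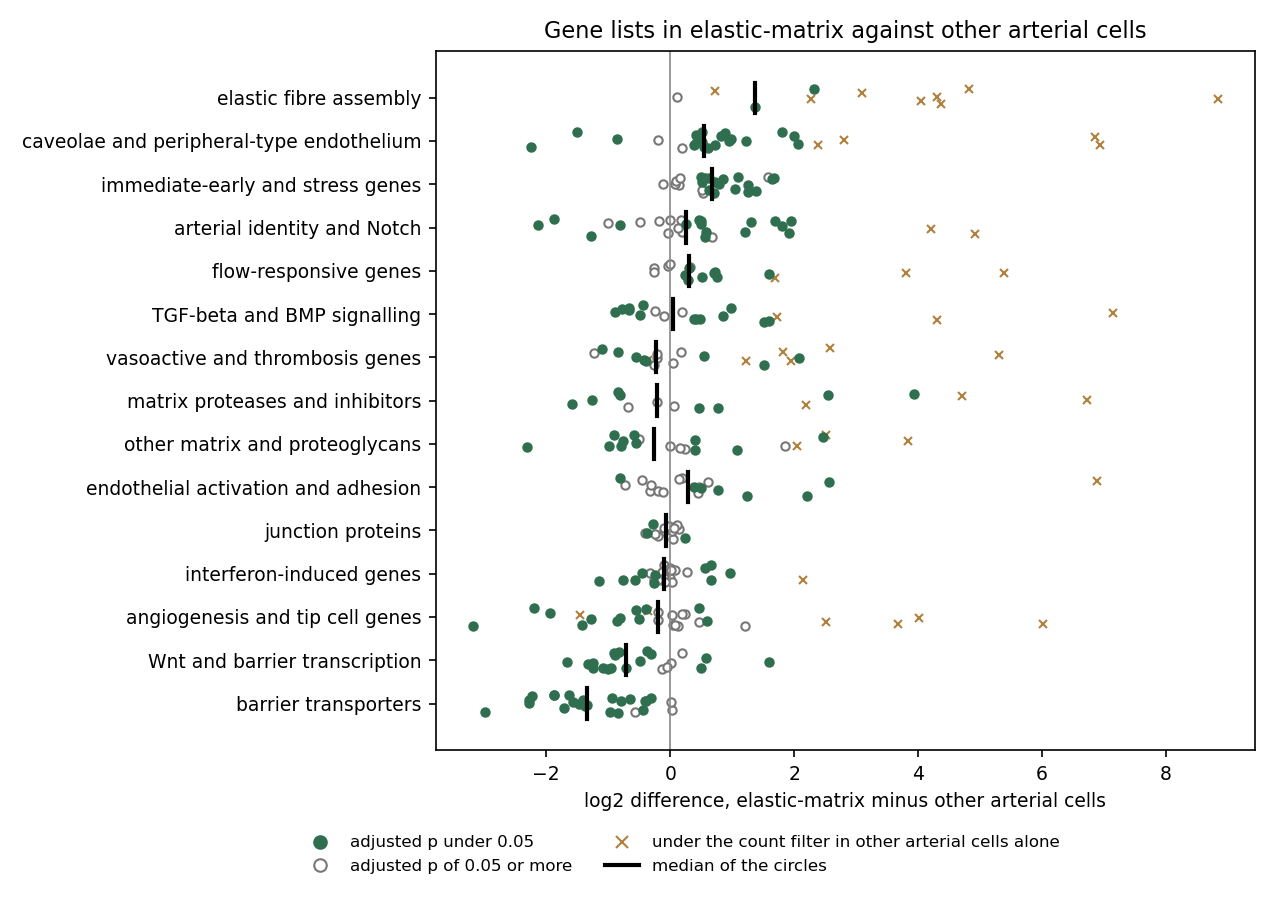
Log2 differences of members minus other arterial cells (horizontal axis) for the tested genes of each list; each circle is 1 gene, filled where the adjusted p was under 0.05, crosses are genes that did not reach the count filter in the other arterial cells alone, and the black bar is the median of the circles. Barrier transporters had 0 higher and 22 lower genes of 25, and elastic fibre assembly only 3 circles.

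For caveolae and peripheral-type endothelium 16 of 21 genes were higher and 3 lower, with a median log2 difference of 0.544. Gata6, a transcription factor of peripheral and cardiac endothelium, had 55.5, 105 and 45.8 CPM in the controls and 56.6, 57 and 42.6 CPM in iECKO against 0 to 1.06 CPM. Fabp4, a fatty acid binding protein of peripheral endothelium, had 40.0, 27.5 and 9.44 CPM in the controls and 136, 44.3 and 46.2 CPM in iECKO against 0 to 0.706 CPM. Neither gene passed 1.06 CPM in any library of other arterial cells. Ehd4, an endocytic ATPase, was higher by 1.8 ± 0.09, while Emcn was lower (-1.51 ± 0.09). For activation and adhesion genes 6 of 18 genes were higher and 1 lower, with a median log2 difference of 0.291, with Tnfrsf1a, a TNF receptor, higher by 0.77 ± 0.12 and Icam2 by 0.49 ± 0.08. For interferon-induced genes 4 of 24 genes were higher and 6 lower, with a median log2 difference of -0.0992, with Ifitm3 higher by 0.66 ± 0.08 and Rsad2 lower (-1.15 ± 0.13). For immediate-early and stress genes 16 of 24 genes were higher and 0 lower, with a median log2 difference of 0.671, with Egr1 higher by 1.05 ± 0.09 and Junb by 1.25 ± 0.12. For angiogenesis and tip cell genes 2 of 22 genes were higher and 10 lower, with a median log2 difference of -0.193, with Sema3c lower (-1.94 ± 0.09). Sema3f, which is not counted, was higher by 3.68.

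Against all 21070 endothelial cells with at most 1 marker, 1776 of 12431 genes were higher and 1782 lower (14.3% each, edgeR with the library block). These counts include genes that reached the count filter through the members only, which were not counted apart here. Tmem100, a BMP-linked arterial gene, was higher by 3.72 ± 0.11 and Col18a1 by 4.37 ± 0.11. Gja5 is given by its level only, with means of 0.138 CPM at 0 markers and 0.976 CPM at 1 marker. Some genes near 0 in other arterial cells were present elsewhere in the endothelium: Tnfaip2, an inflammatory gene, had 10.8 to 49.4 CPM in members, 0 to 0.479 CPM in other arterial cells and 4.42 to 18.7 CPM in all other endothelial cells. In all other endothelial cells Vwf had 224 to 546 CPM and Ptgis 6.72 to 14.7 CPM.

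Cldn5, at chr16:18776847-18778262, is the targeted gene and encodes claudin-5, the main strand protein of brain endothelial tight junctions. In members it stood at 5060.0, 5253 and 5611 CPM in control libraries 1 to 3 and 2133, 2856 and 2561 CPM in iECKO libraries 1 to 3. Every iECKO library lay below every control, as in the other arterial cells, which had 4274, 4208 and 4425 CPM in the controls and 2056, 1623 and 1994 CPM in iECKO. The log2 difference of iECKO from control in members was -1.06 ± 0.30 and did not pass without pairing (edgeR, adjusted p = 0.303). With the replicate number as a block it was -1.07 ± 0.18 (edgeR, adjusted p = 1.33e-04), and with DESeq2 without pairing the adjusted p was 0.00336. The decrease differed between members and other arterial cells by 0.11 ± 0.17 (edgeR interaction term, adjusted p = 0.975). Over both groups, members had more Cldn5 than other arterial cells, by 0.36 ± 0.09 (edgeR, adjusted p = 0.00179).

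Per cell, the decrease was also read as the share of members without a Cldn5 UMI, after thinning each cell of at least 2000 UMIs to 2000 UMIs. That share was 2.17% (1 of 46, exact Clopper-Pearson 95% interval 0.055 to 11.5%), 0% (0 of 125) and 0% (0 of 59) in control libraries 1 to 3. By 3 counts of the total, a count of 0 allows up to 2.40% and 5.08% in the last 2, and the exact upper limits are 2.91% and 6.06%. It was 15.3% (11 of 72, exact interval 7.88 to 25.7%), 10.0% (3 of 30, 2.11 to 26.5%) and 16.0% (8 of 50, 7.17 to 29.1%) in iECKO libraries 1 to 3. All iECKO libraries thus lay above all controls, at 13.8 ± 3.28% against 0.725 ± 1.26% (SD, n = 3 each, exact two-sided permutation p = 0.1, the smallest that 3 against 3 libraries can give). This difference between the groups was 26.3 points at 1000 UMIs per cell (exact permutation p = 0.1) and 8.5 points at 4000 UMIs, where 1 iECKO library had no such cell (exact permutation p = 0.4). In other arterial cells the share was 28.4%, 28.2% and 23.6% in iECKO libraries and 0.573%, 1.68% and 0.786% in controls. Within iECKO libraries the share in members minus that in other arterial cells was -13.0 percentage points (SD 5.26, range -18.2 to -7.63, lower in 3 of 3 libraries, exact sign-flip p = 0.25, the smallest that 3 pairs can give). Its size depended on the depth: it was -6.06 points at 1000 UMIs (range -8.71 to -1.98) and -8.8 points without thinning (range -11.6 to -7.2). In microglia, which should lack the transcript, 75.4 to 97.1% of cells had no Cldn5 UMI at this depth and the others had one or more, whose source was not tested. Intervals and limits cover counting error only.

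**Figure D4:**
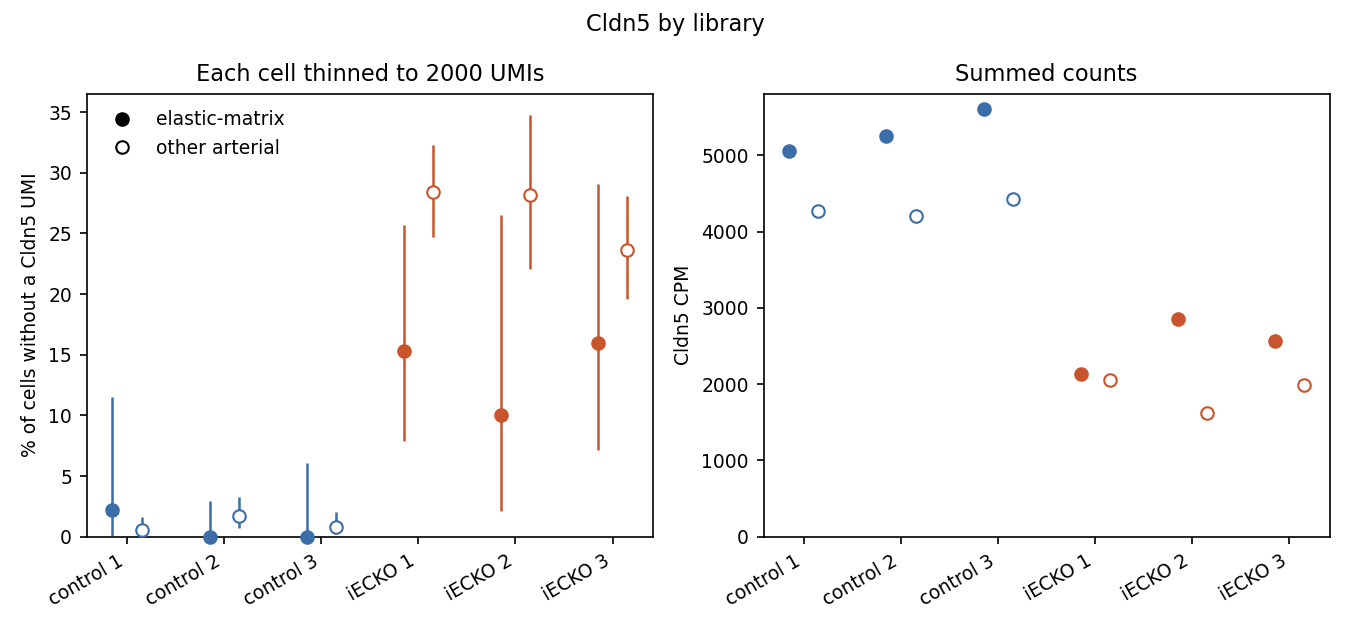
Cldn5 in members and other arterial cells by library (controls blue, iECKO red): on the left the percent of cells without a Cldn5 UMI at 2000 UMIs per cell, with exact 95% intervals, and on the right the level in CPM. In both classes every iECKO library lies below every control for the level and above every control for the share.

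Members were 0.989%, 2.68% and 1.89% of the gate cells in control libraries 1 to 3 and 1.61%, 1.83% and 1.62% in iECKO libraries 1 to 3. The means were 1.85 ± 0.846% and 1.69 ± 0.121% (SD, n = 3 each), and the groups overlapped (difference -0.168 percentage points, exact permutation p = 0.7). Without control library 2, which held 132 of the 399 members, the difference was 0.245 percentage points. After thinning the gate cells to 2000 UMIs and reapplying the rule it was -0.306 points. The share would also move if the marker genes changed in the same cells.

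Which genes differed with the Cldn5 deletion in these cells was asked by comparing iECKO with control libraries gene by gene. Without pairing, 2 of 7682 genes were higher and 1 was lower (0.026% and 0.013%, together 0.0391% called, edgeR's quasi-likelihood test), and 362 (4.71%) had an unadjusted p under 0.05. DESeq2 called 5 higher and 5 lower (0.13%). The lower gene was Slc7a1, the cationic amino acid transporter at chr5:148327410-148399904, with 219.8, 179 and 185 CPM in control libraries 1 to 3 and 51.8, 72.8 and 63.3 CPM in iECKO libraries 1 to 3 (-1.64 ± 0.24, edgeR, adjusted p = 0.00381). The libraries of the groups were far apart in members, and in other arterial cells they were 486, 381 and 537 CPM in the controls and 332, 330.1 and 314 CPM in iECKO. Lypd1, a GPI-anchored Ly6 family protein gene, had 26.6, 41.2 and 31 CPM in the controls and 87.9, 91.8 and 97.3 CPM in iECKO (1.45 ± 0.26, edgeR, adjusted p = 0.0275). Slc12a2, the Na-K-Cl cotransporter NKCC1, had 28.9, 11.8 and 17.5 CPM in the controls and 69.8, 60.1 and 99.8 CPM in iECKO (2.15 ± 0.32, edgeR, adjusted p = 0.00381), and is named because the count is small, its level being below the fixed limit for named genes. All 3 calls are fragile. Lypd1 lost its call without any 1 control library (adjusted p = 0.118, 0.0896 and 0.253 without libraries 1 to 3), and Slc12a2 without control library 2 or 3 (0.113 and 0.0505). Slc7a1 lost it with at least 4 markers required (-0.89, 0.522), where iECKO library 2 had under 20 cells and dropped out. With 33 cells drawn from each library 0 genes were called, 197 having an unadjusted p under 0.05. The count without iECKO library 3 was 29, and without each other library 1 to 7.

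The labels give replicate numbers but state no pairing. Libraries with the same number were taken as pairs because of correlations in these same data, so the results with the block rest on that assumption. With the number as a block 60 genes were higher (0.736%) and 38 lower (0.466%) of 8148 tested by edgeR, 758 (9.3%) having an unadjusted p under 0.05. The genes of the rule stayed in this fit, and without its 2 called genes, Bgn and Pi16, 59 were higher and 37 lower. Of the 98 genes 35, 80 and 68 were also called without replicate pair 1, 2 and 3 in turn, 23 were called in all of these, and 95 kept their sign in all. Without the 8 haemoglobin- or Ttr-rich cells 82 of the 98 were called, and of the genes named below Icam1, Tfrc, Layn, Apcdd1 and Ifit3 lost the call. In other arterial cells 248 of 10984 genes were called with the block (2.26%), from more cells. The median log2 difference of all genes tested in members was 0.000637. Apart from Slc7a1, Lypd1 and Slc12a2, none of the genes named below passed without pairing. Of those named, Slc7a1, Slc12a2, Gkn3, Lox, Col3a1, Reck, Adamts9, Cdh13, Gimap6, Lypd1, Tmem252, Capg, Npnt and Fabp4 kept the block's call without each pair in turn, and the others lost it without at least 1 pair.

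Among the lower genes were the arterial marker Gkn3 and 4 barrier transporters. Gkn3, a gastrokine gene and marker of brain arterial endothelium at chr6:87383256-87388935, had 2409, 1601 and 1549 CPM in the controls and 598, 614 and 969.8 CPM in iECKO (block -1.34 ± 0.20, edgeR, adjusted p = 1.74e-04, and without pairing, adjusted p = 0.154). All iECKO libraries lay below all controls, which the rule for naming genes required. Itm2a, a membrane protein of brain endothelium, had 1341, 1061 and 1461 CPM in the controls and 497, 548 and 969.8 CPM in iECKO (block -0.97 ± 0.17, edgeR, adjusted p = 4.34e-04). The iron exporter gene Slc40a1 (-1.1 ± 0.22), the monocarboxylate transporter gene Slc16a4 (-0.98 ± 0.22), Layn (-1.12 ± 0.27) and Lmo1 (-0.91 ± 0.23) were also among the 10 largest lower differences. Of 24 tested barrier transporters 0 were higher and 4 lower: Slc7a1, Slc16a4, the organic anion carrier Slco1a4 (-0.79 ± 0.16) and the transferrin receptor Tfrc (-1.09 ± 0.26), with a median of -0.257 for the list. Of 20 Wnt and barrier transcription genes 0 were higher and 3 lower (Reck, Nkd1 and Apcdd1), with a median of -0.159. Nkd1, a Wnt feedback inhibitor, had 51.1, 41.2 and 58 CPM in the controls and 13.2, 9.5 and 29.2 CPM in iECKO (block -1.44 ± 0.30, edgeR, adjusted p = 0.0034).

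The elastic matrix genes themselves changed in part. Of 9 tested genes of elastic fibre assembly 1 was higher and 1 lower, with a median of -0.144. Lox had 57.7, 80.5 and 60.6 CPM in the controls and 32.5, 25.3 and 25.6 CPM in iECKO, so that every iECKO library lay under every control (block -1.18 ± 0.26, edgeR, adjusted p = 0.0061), and Ltbp1, a latent TGF-beta binding protein gene, had 4.44, 16.7 and 12.1 CPM in the controls and 22.9, 44.3 and 41.4 CPM in iECKO, with all iECKO libraries above all controls (block 1.7 ± 0.35, edgeR, adjusted p = 0.00326). Neither passed without pairing, at adjusted p = 0.142 and 0.271 by edgeR. Of 9 tested proteases and inhibitors 3 were higher and 1 lower, with a median of 0.494. Htra1, a serine protease that acts on matrix and TGF-beta, had 266, 283 and 329 CPM in the controls and 138, 189.9 and 139 CPM in iECKO (block -0.92 ± 0.17, edgeR, adjusted p = 4.49e-04). Timp3, an inhibitor bound to the matrix, had 1434, 1189 and 824 CPM in the controls and 2982, 2184 and 1357 CPM in iECKO (block 0.90 ± 0.17, edgeR, adjusted p = 0.0011), where control library 1 lay above iECKO library 3 and the groups overlapped. Adamts9 was higher by 2.67 ± 0.35 and Timp4 by 1.71 ± 0.43, both with iECKO library 1 the highest, at 149 and 65 CPM. Col3a1, a fibrillar collagen gene of the fibroblast list, had 51.1, 59.9 and 72.8 CPM in the controls and 15.7, 15.8 and 37.7 CPM in iECKO (block -1.33 ± 0.27), and that list summed to 75.5 to 106 CPM in controls and 31.7 to 99.8 CPM in iECKO. The part of fibroblast RNA in these differences was not tested.

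The higher genes included Cdh13, the gene of T-cadherin, with 113, 146 and 94.3 CPM in the controls and 373, 244 and 224 CPM in iECKO (block 1.24 ± 0.18, edgeR, adjusted p = 8.70e-06). Gimap6, a GTPase gene of endothelium and lymphocytes, had 88.8, 81.5 and 72.8 CPM in the controls and 220.4, 174 and 152 CPM in iECKO (block 1.17 ± 0.18, edgeR, adjusted p = 3.66e-05). In both genes the groups did not overlap, which the rule for naming genes required. Over all 7682 genes of the unpaired fit, 352 (4.58%) were higher and 381 (4.96%) lower without overlap. The other genes among the 10 largest higher differences were Tmem252 (1.7 ± 0.24, from 173 CPM in iECKO library 3 to 959 CPM in iECKO library 1), Lypd1 (1.5 ± 0.23), Gngt2 (1.28 ± 0.25), the calcium channel Trpv4 (1.08 ± 0.23), the actin capping protein Capg (1.0 ± 0.17), Fosl2 (0.97 ± 0.21), Npnt (0.90 ± 0.18) and cyclin D1, Ccnd1 (0.86 ± 0.18). Of the peripheral-type genes 2 of 22 were higher: Fabp4, with 40.0, 27.5 and 9.44 CPM in the controls and 136, 44.3 and 46.2 CPM in iECKO (block 1.55 ± 0.27), and S100a6 (0.93 ± 0.17). Of 18 activation genes Icam1 was higher (1.01 ± 0.25), of 24 interferon-induced genes Bst2 (-0.65 ± 0.16) and Ifit3 (-0.80 ± 0.22) were lower, and of 26 arterial identity and 16 flow-responsive genes 0 were called in either direction by the block. The medians of these lists were 0.132 for peripheral-type genes, 0.354 for activation, -0.271 for interferon, -0.13 for arterial identity and -0.0256 for flow.

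**Figure D5:**
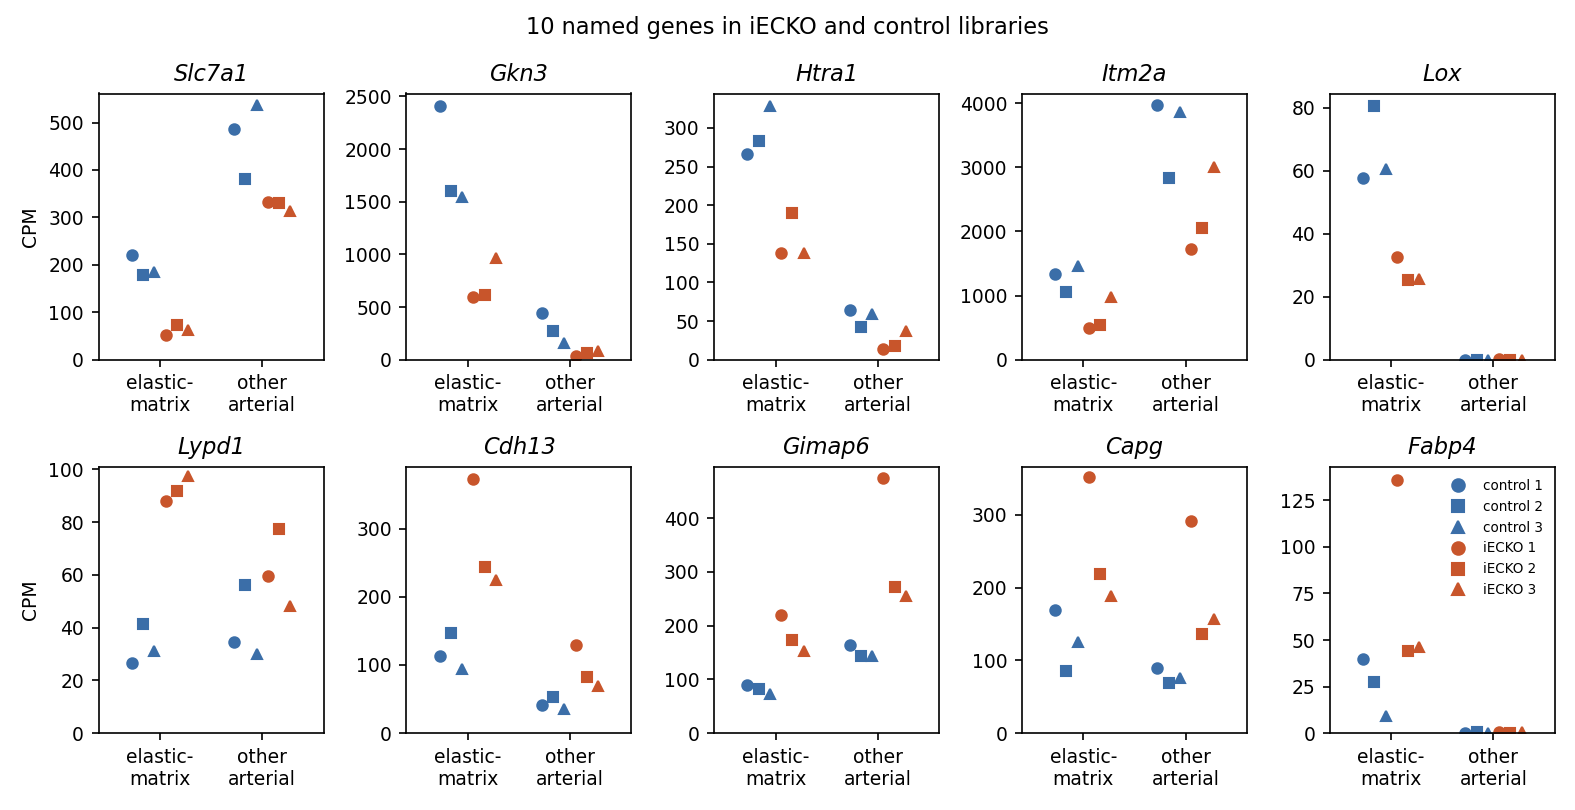
Levels of 10 named genes (CPM) by library in members and other arterial cells, with 1 point for each library, controls blue and iECKO red. In members all iECKO libraries lie below all controls for Slc7a1, Gkn3, Htra1, Itm2a and Lox and above them for Lypd1, Cdh13, Gimap6, Capg and Fabp4. The rule for naming genes required this of all but Lox and Fabp4.

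Whether iECKO acted differently on members than on other arterial cells was asked with an interaction term. Of 10020 genes 3 had a more positive and 7 a more negative difference in members (0.0299% and 0.0699%, together 0.0998% called, edgeR), and 655 (6.54%) had an unadjusted p under 0.05. Slc7a1 had the stronger decrease in members, by -1.16 ± 0.19 on the log2 scale (edgeR, adjusted p = 0.00712), and Glul, the glutamine synthetase gene, a more positive difference, by 1.1 ± 0.18 (edgeR, adjusted p = 0.00712). Glul had 817, 897 and 1248 CPM in the controls and 1145, 1219 and 1195 CPM in iECKO in members and 1352, 1620.0 and 1656 CPM in the controls and 726, 750.2 and 1211 CPM in iECKO in other arterial cells. The call of every one of these genes was lost without control library 1, where 0 genes were called, and 114 genes were called without iECKO library 3.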

How the data were processed

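UMI counts per gene and barcode were deposited by the authors for 3 control and 3 iECKO libraries. Per the file headers their software was Cell Ranger 6.1.1, and per the submitters' processing notes the build was mm10. They are raw counts with no normalization. Members and gene lists were chosen with earlier results of these data known. Counts were summed per library over members, other arterial cells, all other endothelial cells and a venous gate (4195 cells). CPM use TMM factors common to these sums. Sums of at least 20 cells entered edgeR 4.0.16 (R 4.3.3, robust quasi-likelihood, TMM, filterByExpr, two-sided, Benjamini-Hochberg adjusted p under 0.05). Standard errors are the log2 difference over the square root of F. Rule genes were left out of comparisons between classes, and the arterial genes of the gate also of that with other arterial cells. Named genes were the 12 largest differences each way between classes, the 10 largest each way between groups and the 5 largest each way for the interaction, past the threshold. For classes and groups they also had a mean of 6 or more in log2 CPM, with the same sign in every library (classes) or no overlap (groups). Up to 4 called genes per list were added. Predicted, sex-linked, ribosomal and mitochondrial genes were not named, and 1 gene that the rule selects is not reported here. Cells were handled with Python 3.11.15, scanpy 1.11.5, numpy 2.4.6, pandas 2.3.3 and scipy 1.17.1, and plots with matplotlib 3.10.9.

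Doublets were not removed from the members (14 had high Scrublet scores). Removal was an alternative, as were RLE factors, DESeq2 1.42.0, at least 4 markers, every gene with a count kept, stricter cell limits (2000 UMIs, 5% mitochondrial), removal of cells with fibroblast UMIs, equal cell numbers, thinning, and each library left out. Removal of cells with over 1% Ttr or haemoglobin UMIs, the block with that removal, the block without each pair and the block in the interaction were chosen after seeing the data, as was the restriction of list counts to genes reaching the count filter in other arterial cells alone. Deviations from group means over 7682 genes correlated at 0.323, 0.306 and 0.148 between libraries with the same replicate number and at -0.292 to 0.048 between others. On this basis the numbers were taken to pair the libraries. Deviations within a group sum to 0, so positive values for same-number pairs push the others down. The contrast is thus partly built in and does not establish the pairing. Genes are not independent. The fits were checked on simulated data with known changes. Of changes of log2 size 1, 36.7% were recovered between groups without pairing, 63% with the block and 81.4% against other arterial cells. At log2 size 2 the shares were 95%, 98% and 100%, and false calls numbered 6, 8 and 16. The few calls without pairing therefore do not show that other genes were unchanged. Of 32286 feature identifiers 32158 were in the reference annotation.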

Additional observations from a re-analysis of the deposited data

Results flagged for a closer look

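For 10 genes the difference of iECKO from control in the elastic-matrix cells was not the same as in other arterial cells, by edgeR's interaction term on the log2 scale, and the 3 more positive and the 5 largest more negative ones are given. It was more positive in the elastic-matrix cells for Glul, by 1.1 ± 0.18, for Atp2b4, a plasma membrane calcium pump gene, by 1.08 ± 0.22 (edgeR, adjusted p = 0.032), and for Nr4a2, an immediate-early nuclear receptor gene, by 1.02 ± 0.19 (edgeR, adjusted p = 0.0206). Nr4a2 had 71, 146 and 179 CPM in the controls and 165, 237 and 257 CPM in iECKO in the elastic-matrix cells and 36.1, 103 and 78.2 CPM in the controls and 48.9, 61.5 and 64.4 CPM in iECKO in other arterial cells. It was more negative for Slc7a1, by -1.16 ± 0.19 (edgeR, adjusted p = 0.00712), for Relb, an NF-kappaB subunit gene, by -1.47 ± 0.31 (edgeR, adjusted p = 0.0473), for Hmcn1, a matrix protein gene, by -1.27 ± 0.26 (edgeR, adjusted p = 0.0395), for Sox7, an endothelial transcription factor gene, by -1.23 ± 0.24 (edgeR, adjusted p = 0.0291), and for Sh3bp5, by -1.22 ± 0.26 (edgeR, adjusted p = 0.0441). Hmcn1 had 48.9, 70.7 and 79.5 CPM in the controls and 14.4, 22.2 and 41.4 CPM in iECKO in the elastic-matrix cells and 229, 328 and 290.3 CPM in the controls and 199, 423 and 281 CPM in iECKO in other arterial cells. Without control library 1 all 8 of these lost the call. At least 4 markers per cell ended it for Atp2b4, Relb, Hmcn1, Sox7, Sh3bp5 and Slc7a1, and not for Glul or Nr4a2. In that repeat iECKO library 2 had 17 cells and dropped out. Nr4a2 also lost the call with DESeq2 (adjusted p = 0.06) and without control library 2 (edgeR, adjusted p = 0.251). Atp2b4, Relb, Hmcn1, Sox7 and Sh3bp5 lost it in further repeats as well, among them the removal of other single libraries.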

How the results depend on the processing

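The count of genes differing between iECKO and control in the elastic-matrix cells depended most on the processing. Against 3 without pairing it was 10 with DESeq2, 87 with no filter on low counts, 11 with at least 4 markers, 7 with stricter cell limits, 11 without high Scrublet scores, 5 without cells holding a fibroblast UMI, 5 without Ttr- or haemoglobin-rich cells, 0 with equal cells, and 1 to 29 leaving out each library. With the replicate block it was 98, with the block and without Ttr- or haemoglobin-rich cells 96, and with the block leaving out pair 1, 2 or 3 it was 49, 166 and 110. The interaction count of 10 became 4 with DESeq2, 76 with no filter, 22 without high Scrublet scores, 16 without fibroblast UMIs, 6 without Ttr- or haemoglobin-rich cells, 52 with the replicate block, and 0 to 114 leaving out each library. Thinning gave 1369 genes against 2932 for other arterial cells and 1817 against 3558 for all other endothelial cells, with fewer genes tested. The difference in the share of members, -0.168 points, ranged from -0.601 to 0.245 leaving out each library, the positive value being without control library 2. Slc38a5, a venous gate gene, reversed to 0.33 for iECKO against control with at least 4 markers and to 0.32 against other arterial cells chosen by at least 3 of 5 arterial genes. The cause of these changes was not tested.

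For single genes against other arterial cells, 1413 repeats over 93 genes kept direction and call, 41 lost the call and 1 reversed. The 24 genes with the largest differences kept theirs in every repeat run. These repeats include genes that reached the count filter through the members only, such as Igfbp4. Paired by replicate number, the share of cells without Cldn5 differed by 13.0 points (exact p = 0.25, the smallest possible) and the share of members by -0.168 (exact p = 0.75). Among iECKO members of at least 2000 UMIs, counted without thinning, 6, 0 and 5 had no Cldn5 UMI and 61, 26 and 41 had at least 2, fewer than 10 in one arm, and the planned test was not run. The number of members, 33 to 132 a library, limits the precision of their sums.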

Other observations

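Genes that mark other brain cells were mostly low in the elastic-matrix cells. The astrocyte list summed to 1590 to 2220 CPM, of which Clu made up 922 to 1691 CPM, and Gfap had 0 UMIs. The gap junction gene Gja1, on the same list, had 17.8 to 53 CPM against 77.8 to 295 CPM in other arterial cells (-1.87 ± 0.14, edgeR, adjusted p = 1.52e-10). The oligodendrocyte genes Mbp and Mobp were lower than in other arterial cells (-3.08 ± 0.48 and -3.44 ± 0.72), with Mog, Cldn11 and Mag at 0. The microglia list summed to 38.0 to 66.6 CPM. Of the neuron list Stmn2, which arterial endothelium also expresses, had 555 to 877 CPM against 125 to 279 CPM (1.91 ± 0.13, edgeR, adjusted p = 1.28e-07). The part of RNA from other cells in these values was not tested.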
